A study of Mus musculus with 5 samples.

Results

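The mitochondrial genome (mtDNA) of the mouse encodes 6 subunits of respiratory chain complexes III and IV and of ATP synthase, also called complex V. They are mt-Cytb of complex III, mt-Co1, mt-Co2 and mt-Co3 of complex IV, and mt-Atp6 and mt-Atp8 of complex V. All 6 were found by gene name among the 17015 genes of the deposited table, in which they stand beside 7 mtDNA-encoded subunits of complex I. The values are FPKM, that is, fragments normalised to transcript length and to the size of the library, from RNA-seq of tibialis anterior (TA), a fast-twitch leg muscle, of sedentary male mice aged 8 weeks. Of the 5 libraries, 3 are titled Ctrl and 2 are titled Nrip1KO. Here they are called WT control and labelled skmNrip1-/-, after the study's names, and the study's legend gives 3 mice per group. In skmNrip1-/- mice, Cre driven by the myogenin promoter, which is active in skeletal muscle cells, deletes the floxed coding exon of Nrip1 in both alleles. The study describes controls as Cre-negative littermates, and all mice as C57BL/6J or C57BL/6JN in origin. Whole muscle was sequenced, so that more mitochondrial RNA per fibre and more of the mitochondria-rich fibres cannot be told apart.

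Both strands of mtDNA are transcribed as long precursors from which the messenger RNAs are cut, mostly at the transfer RNAs that lie between them. The encoded subunits are the membrane core of each complex, and they are assembled with a larger number of subunits that are encoded in the nucleus and imported. RIP140, the protein product of Nrip1, is a coregulator of nuclear receptors that is known to restrain the expression of nuclear genes for oxidative metabolism in muscle and fat.

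All 6 genes lie on the plus strand of mtDNA in GRCm38 (mm10), each with a single exon without introns. Their positions were M:5328-6872 for mt-Co1 (1545 bases), M:7013-7696 for mt-Co2 (684 bases), M:7766-7969 for mt-Atp8 (204 bases), M:7927-8607 for mt-Atp6 (681 bases), M:8607-9390 for mt-Co3 (784 bases) and M:14145-15288 for mt-Cytb (1144 bases). mt-Atp8, mt-Atp6 and mt-Co3 thus form a run in which neighbours overlap. The last 43 bases of mt-Atp8, 21.1% of its length, are also the first bases of mt-Atp6, and mt-Atp6 shares 1 base with mt-Co3. The whole of mt-Atp8 is shown because reads from its end belong to either gene; the bases shared with mt-Atp6 are in capitals.
mt-Atp8: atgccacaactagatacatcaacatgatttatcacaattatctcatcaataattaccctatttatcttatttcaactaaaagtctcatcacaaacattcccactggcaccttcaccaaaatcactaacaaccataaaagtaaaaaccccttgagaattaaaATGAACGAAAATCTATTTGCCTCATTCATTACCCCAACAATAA
All 6 open with ATG. mt-Co1, mt-Co2, mt-Atp6 and mt-Atp8 end in TAA, while mt-Co3 and mt-Cytb end in a lone T. The last bases of mt-Co1, as an example of the former, and of mt-Co3 and mt-Cytb are shown with the stop codon or what is left of it in capitals. A lone T at the end of a mitochondrial gene becomes a stop codon when the poly(A) tail is added to the RNA.
mt-Co1: gaggaaccaacctatgtaaaagtaaaaTAA
mt-Co3: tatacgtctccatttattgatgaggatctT
mt-Cytb: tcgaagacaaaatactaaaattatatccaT

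Copies of mtDNA inserted in the nuclear genome bear on how these genes were counted. Pseudogenes on the minus strand of chromosome 1 were identical to 681 bases of mt-Co2 (Gm28661, chr1:24614885-24615565), 678 bases of mt-Atp6 (Gm10925, chr1:24613974-24614651) and 783 bases of mt-Co3 (Gm28437, chr1:24613189-24613971). Reads from such a pair cannot be told apart by sequence. Gm29216 matched 483 bases of mt-Co1 at 99.79% identity, and on chromosome 2 Gm13340 matched mt-Co1 at 97.61% and Gm13341 matched mt-Co2 at 95.91%. The first 60 bases of mt-Co2 are shown with the identical and the diverged copy, with bases that differ from mt-Co2 in capitals (0 in Gm28661 and 2 in Gm13341).
mt-Co2: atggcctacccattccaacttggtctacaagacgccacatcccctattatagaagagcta
Gm28661: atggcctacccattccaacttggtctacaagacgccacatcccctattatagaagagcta
Gm13341: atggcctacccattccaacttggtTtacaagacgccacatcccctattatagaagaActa
No copy in the table was found for mt-Cytb or mt-Atp8.

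The gene-level value of the targeted gene goes against its label. Nrip1 (ENSMUSG00000048490) had an FPKM of 4.64, 7.69 and 6.55 in WT control libraries 1, 2 and 3, and of 25.3 and 22.5 in libraries 1 and 2 labelled skmNrip1-/-, so the labelled deletion coincided with higher values. The log2 fold change was 1.94 (SE 0.21, adjusted p = 0.0261 from limma). The libraries are therefore called by their labels, and each direction rests on those labels. The study checked this mouse line by Nrip1 expression and RIP140 protein in gastrocnemius and heart, not in TA. A gene-level value does not separate the deleted exon from the exons left in place. The cause of the higher values was not tested. The deposited FPKM carry a scaling between libraries: the median ratio of a library to the geometric mean of each gene was 1.002 in all 5. The FPKM sums were not equal, and were 969144 to 1144714 in WT control libraries, and 1286254 and 1288038 in those labelled skmNrip1-/-. Each FPKM was therefore also expressed as a share of its library's FPKM sum. The number of fragments per library is unknown. The steps between low values gave 0.81 to 1.1 times as many fragments per unit of FPKM as in WT control library 1.

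All 6 mtDNA-encoded subunits had higher FPKM in both libraries labelled skmNrip1-/- than in any WT control library, by 1.35 to 1.69 times in the group means. No gene of the 6 passed the test after adjustment over all genes. They are among the most abundant RNAs of the table, ranking from 1 to 7 in every library.

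mt-Cytb (ENSMUSG00000064370) encodes cytochrome b, the subunit of complex III that holds its quinone-binding sites. Its FPKM was 32645, 26917 and 25926 in WT control libraries 1, 2 and 3, and 39008 and 38019 in libraries 1 and 2 labelled skmNrip1-/-. The groups did not overlap, and the highest WT control library stood apart from the other WT control libraries by more than these differed from each other. The means were 28496 ± 3627 (SD, n = 3) and 38513 ± 699 (SD, n = 2), a log2 fold change of 0.44 (SE 0.21, adjusted p = 0.491 from limma).

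mt-Co1 (ENSMUSG00000064351) encodes the subunit of complex IV, cytochrome c oxidase, in which oxygen is reduced to water. Its FPKM was 56951, 48973 and 40679 in the WT control libraries, and 67668 and 64015 in the libraries labelled skmNrip1-/-. The 3 WT control values were spread over a wider range than the gap between the groups. This gave a log2 fold change of 0.44 (SE 0.25, adjusted p = 0.563 from limma).

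mt-Co2 (ENSMUSG00000064354) encodes the subunit that takes electrons from cytochrome c. Its FPKM was 45021, 32656 and 35956 in the WT control libraries, and 56111 and 58002 in the libraries labelled skmNrip1-/-. Both of the latter lay above the highest WT control library, WT control library 1. Its log2 fold change was 0.60 (SE 0.24, unadjusted p = 0.0421 and adjusted p = 0.396 from limma).

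mt-Co3 (ENSMUSG00000064358), the remaining core subunit of complex IV, had an FPKM of 48050, 36719 and 31249 in the WT control libraries, and of 53241 and 51365 in the libraries labelled skmNrip1-/-. It had the widest spread among WT control libraries of the 6 genes, with a coefficient of variation of 22.2%, against 12.7% for mt-Cytb. Its log2 fold change was 0.46 (SE 0.26, adjusted p = 0.564 from limma).

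mt-Atp6 (ENSMUSG00000064357) encodes subunit a of ATP synthase, which forms the proton path beside the rotating ring. Its FPKM was 37712, 31294 and 26756 in the WT control libraries, and 45810 and 47641 in the libraries labelled skmNrip1-/-. The groups did not overlap, and WT control library 1 was again the nearest to the other group. The log2 fold change was 0.56 (SE 0.24, unadjusted p = 0.0508 and adjusted p = 0.423 from limma).

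mt-Atp8 (ENSMUSG00000064356) encodes a small membrane subunit of ATP synthase, and it was the most abundant gene of the whole table by FPKM in all 5 libraries. Its FPKM was 171383, 196076 and 148492 in the WT control libraries, and 283085 and 299742 in the libraries labelled skmNrip1-/-. The gap between the groups was wider than the whole range of the WT control libraries, and here WT control library 2 was the highest of its group. The log2 fold change was 0.77 (SE 0.30, unadjusted p = 0.0416 and adjusted p = 0.395 from limma). Of the 6 genes it had the largest point estimate. FPKM divides by length, and how the length of a gene of 204 bases was set is not given in the sources used here.

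Set against all genes, the count of 2 members with an unadjusted p of 0.05 or less and a higher value compares with 6.57% of the 12148 genes tested. After adjustment, 0.37% of genes were called higher and 0.0823% lower, where a call needed an adjusted p no higher than 0.05 and a change of 1.2-fold or more, and 0 of the 6 were among them. Groups that did not overlap, with the WT control libraries on the lower side, were found in 6 of 6 members and in 15.8% of all tested genes. The mtDNA-encoded genes moved together over the libraries, so neither count of members is a count of separate observations. The median log2 fold change was 0.51 over the 6 members, beside 0.00 over all tested genes. The 5 libraries can be split 2 against 3 in 10 ways, so that a two-sided exact permutation test on 1 gene cannot give a p below 0.2.

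**Figure D1:**
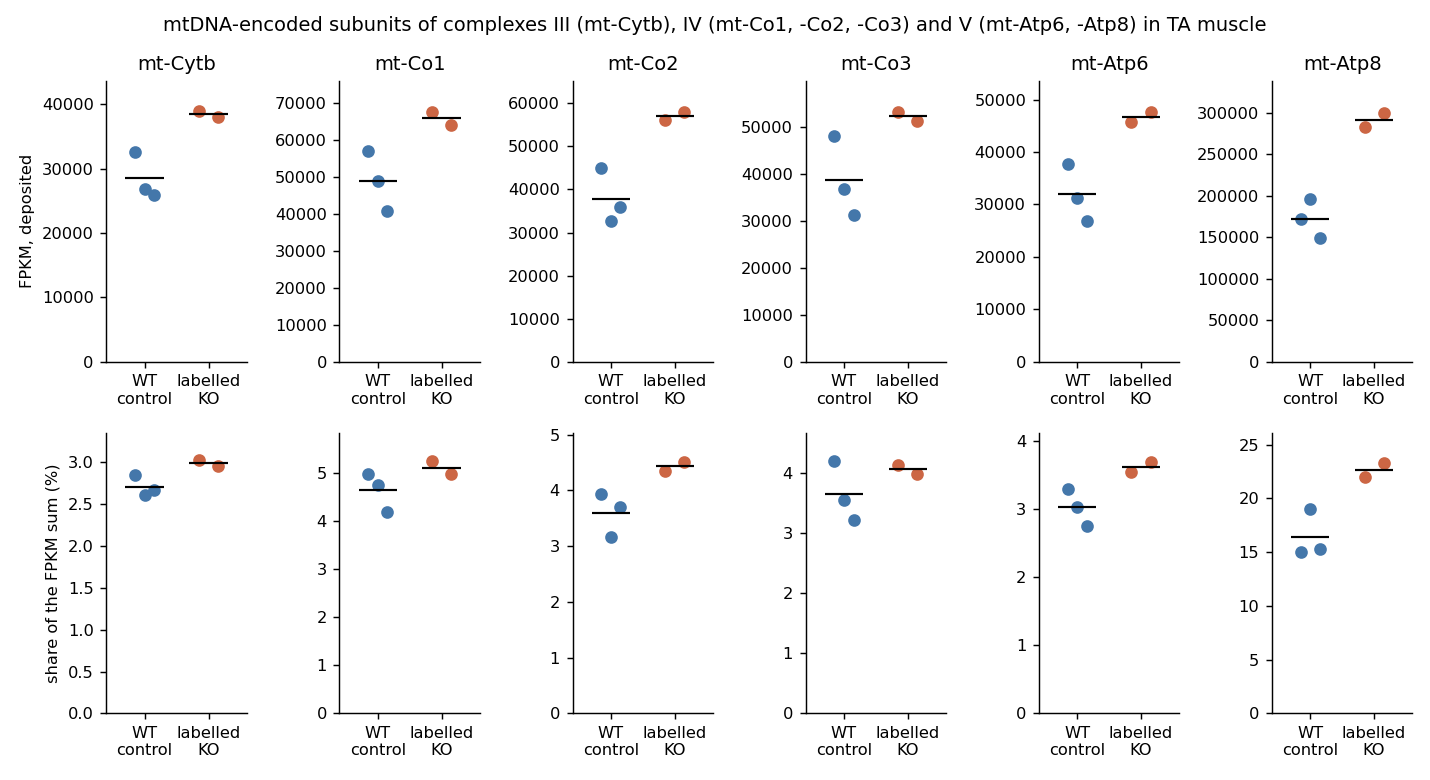
Each panel plots 1 gene, with FPKM in the upper row and the share of the library's FPKM sum in percent in the lower row. Points are libraries (WT control, n = 3, blue; labelled skmNrip1-/-, marked labelled KO, n = 2, orange) and lines are group means; the groups are apart in all 6 upper panels and overlap in 1 lower panel, mt-Co3.

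The order of the levels was the same in both groups apart from 1 pair. By mean FPKM in WT control libraries, mt-Atp8 was highest, followed by mt-Co1, mt-Co3, mt-Co2, mt-Atp6 and mt-Cytb. mt-Atp8 lay above mt-Co1 in 5 of 5 libraries without overlap. The ranges of each further pair of neighbours overlapped between WT control libraries, but mt-Co1 exceeded mt-Co3, mt-Co2 exceeded mt-Atp6 and mt-Atp6 exceeded mt-Cytb within each of the 5 libraries. mt-Co3 exceeded mt-Co2 in WT control libraries 1 and 2 alone, so that these neighbours could not be ordered as deposited. With the identical nuclear copies on chromosome 1 added, mt-Co3 exceeded mt-Co2 in 0 of 5 libraries, and the order was the same in both groups.

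As a share of the FPKM sum, the 6 genes together made up 34.2%, 36.1% and 31.9% in WT control libraries 1, 2 and 3, and 42.3% and 43.4% in the libraries labelled skmNrip1-/-. Every library labelled skmNrip1-/- was thus above every WT control library. The difference of the means was 8.79 percentage points. Most of these points were those of mt-Atp8. In an alternative chosen after seeing the data, mt-Atp8 was left out of the members' total but kept in the library's FPKM sum. The shares were then 19.3%, 17.1% and 16.6% against 20.3% and 20.1%, a difference of 2.59 points. Since mt-Atp8 stays in the FPKM sum, its higher values lower the shares of the other members. mt-Atp8 itself held 15.0%, 19.0% and 15.3% of the FPKM sum in the WT control libraries, and 22.0% and 23.3% in the libraries labelled skmNrip1-/-. All 13 mtDNA-encoded genes together held 45.4% to 50.7% in the WT control libraries and 58.6% to 60.9% in the libraries labelled skmNrip1-/-.

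On the share scale the members' log2 fold changes were between 0.14 and 0.47. The median of all tested genes on that scale moved to -0.29. Dividing a library by its sum shifts nearly all genes alike, so the distance of the 6 from that median could hardly change. The values were 0.14 (SE 0.15) for mt-Cytb, 0.14 (SE 0.16) for mt-Co1, 0.30 (SE 0.17) for mt-Co2 and 0.16 (SE 0.17) for mt-Co3. For mt-Atp6 and mt-Atp8 they were 0.26 (SE 0.16) and 0.47 (SE 0.20). None was called (adjusted p from 0.156 to 0.544 from limma), beside 0.252% of 11913 genes called higher. Over all genes this scale gave 30 calls higher and 63 lower, in place of 45 and 10 for the deposited FPKM. Groups that did not overlap remained in 5 of the 6, against 2.74% of genes on this scale. That percentage was 15.8% for deposited FPKM. The members are a large part of each FPKM sum, so their own higher values lower the shares of other genes. The 2.74% is therefore not an independent background for the 6. In mt-Co1 the lower of the libraries labelled skmNrip1-/- had a share of 4.98%, the same to this precision as WT control library 1. In mt-Co3, WT control library 1 had a share of 4.20%, above the 4.13% and 3.99% of the libraries labelled skmNrip1-/-. Rescaled instead to the sum over genes not encoded in mtDNA, the members stood at 0.52 to 0.85 on the log2 scale, and their adjusted p ran from 0.116 to 0.267 (limma).

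**Figure D2:**
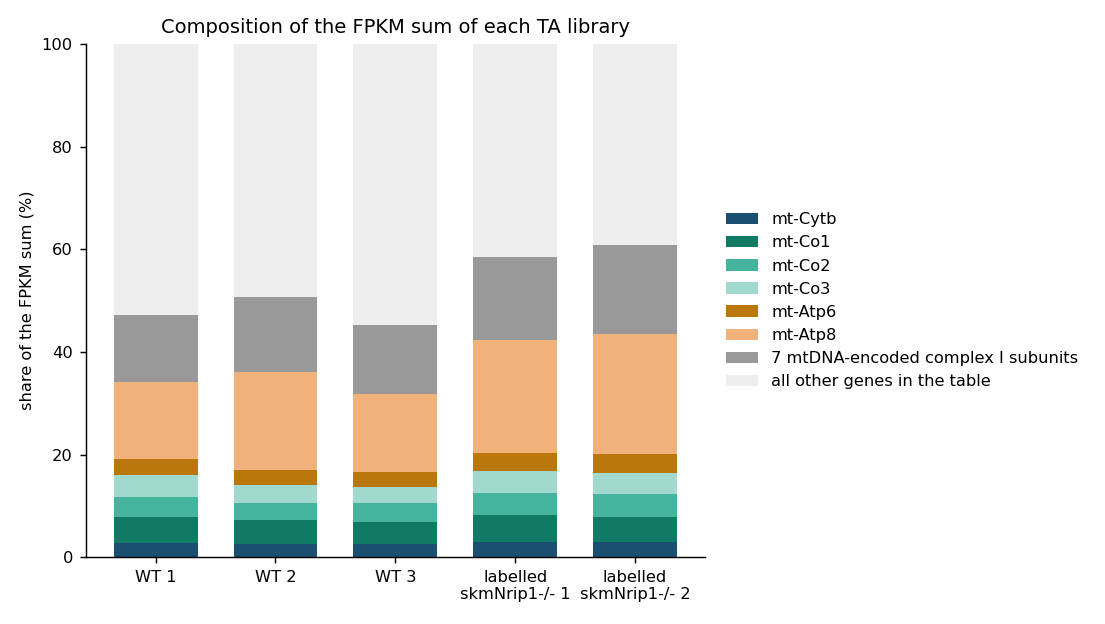
Stacked bars show the share of each library's FPKM sum in percent, with 1 bar per library, for the 6 genes, the 7 mtDNA-encoded complex I subunits and all other genes. The coloured part reached 31.9% to 36.1% in the WT control libraries and 42.3% to 43.4% in the libraries labelled skmNrip1-/-, with mt-Atp8 as its largest block.

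Within the 6-gene sum, where library scaling cancels, mt-Atp8 made up 43.7%, 52.6% and 48.0% in the WT control libraries, and 51.9% and 53.6% in the libraries labelled skmNrip1-/-. WT control library 2 lay between the libraries of the other group. The difference of 4.66 percentage points had an exact two-sided permutation p of 0.4, and it was 2.46 without WT control library 1 and 6.90 without WT control library 2. mt-Co1, mt-Co3 and mt-Cytb took a smaller share of the sum in both libraries labelled skmNrip1-/- than in any WT control library, with group means of 13.6% and 11.9%, 10.7% and 9.48%, and 7.98% and 6.98%, in WT control and the other group respectively. Each had an exact permutation p of 0.2, the smallest this design can give, and 0.4 after adjustment over the 6 genes. The shares of a library add up to a fixed total, so a larger share for mt-Atp8 requires smaller ones elsewhere. In FPKM, mt-Co1, mt-Co3 and mt-Cytb were higher in both libraries labelled skmNrip1-/-. The shares of mt-Co2 and mt-Atp6 overlapped between groups, with exact permutation p of 1 and 0.6. With the identical nuclear copies on chromosome 1 added to their genes, mt-Co3 and mt-Cytb overlapped between groups too, mt-Co1 did not, and mt-Atp8 was higher in both libraries labelled skmNrip1-/- than in WT control. The differences were then 5.19 points for mt-Atp8 and -1.22 points for mt-Co2. For mt-Co2 the difference was -0.29 points, and it was 0.14 without WT control library 1 and 0.21 without WT control library 3.

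mt-Atp8 and mt-Atp6 are carried on 1 messenger RNA, so their ratio was examined. The FPKM of mt-Atp8 was 4.54, 6.27 and 5.55 times that of mt-Atp6 in the WT control libraries, and 6.18 and 6.29 times in the libraries labelled skmNrip1-/-. The groups overlapped, and the difference in the log2 ratio was 0.21 (exact two-sided permutation p = 0.4), which fell to 0.08 without WT control library 1. The ratio differed between WT control libraries by more than it did between the group means.

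The identical nuclear copies changed the picture for mt-Co2 most. Gm28661 was listed at 7140, 6262 and 283 FPKM in the WT control libraries, and at 1408 and 0 in the libraries labelled skmNrip1-/-. A copy that drew 13.7% and 16.1% of the summed signal in WT control libraries 1 and 2 thus drew 0.780% in the remaining WT control library, and 2.45% and 0% in the libraries labelled skmNrip1-/-. mt-Co2 and Gm28661 together had 52161, 38918 and 36238 FPKM in the WT control libraries, and 57519 and 58002 in the libraries labelled skmNrip1-/-. The groups remained apart, but the log2 fold change of mt-Co2 was 0.46 (SE 0.25, adjusted p = 0.548 from limma) in place of 0.60. As a share of the FPKM sum, the summed value was 4.56% in WT control library 1, above the 4.47% and 4.51% of the other group, and the log2 fold change was 0.16 (SE 0.17). The sums with copies were chosen after seeing the data.

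The other copies were small beside their gene. Gm10925 was listed at 559, 288 and 108 FPKM in the WT control libraries, and at 178 and 0 in the libraries labelled skmNrip1-/-, at most 1.46% of its sum with mt-Atp6. Gm28437 was listed at 71.2, 330 and 0 FPKM in the WT control libraries, and at 242 and 44.6 in the libraries labelled skmNrip1-/-. Adding them left mt-Atp6 at a log2 fold change of 0.55 and mt-Co3 at 0.46. The diverged copies Gm29216, Gm13340 and Gm13341 were listed between 0.667 and 6.58 FPKM in all libraries.

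**Figure D3:**
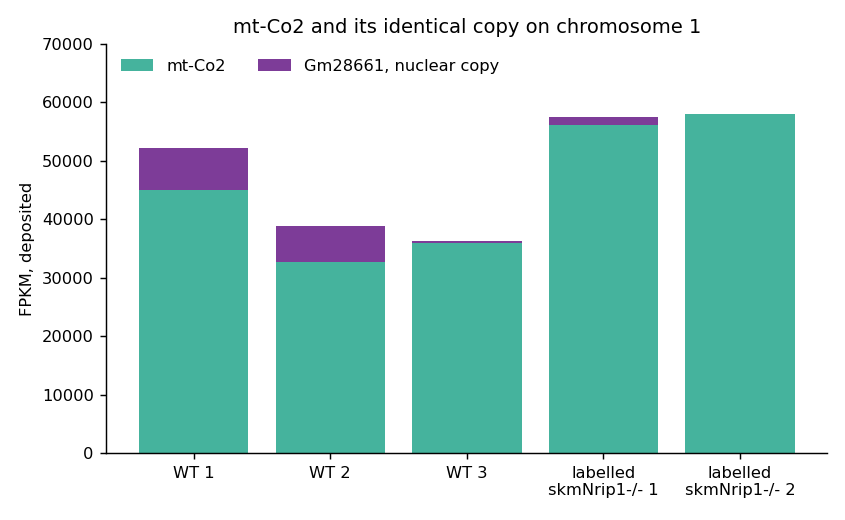
Bars show the FPKM of mt-Co2 in each library, with the FPKM of its identical copy Gm28661 stacked on top. The copy is visible in WT control libraries 1 and 2 (7140 and 6262 FPKM), and the stacked height of WT control library 1 is 52161 FPKM, against 57519 and 58002 in the libraries labelled skmNrip1-/-.

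Of the 7 mtDNA-encoded subunits of complex I, the NADH dehydrogenase, all but mt-Nd6 lie on the same strand as the 6 members. In all 7 the groups did not overlap in FPKM, WT control being the lower, against 15.8% of all tested genes, and 0 were called. On the share scale this held for 6 of the 7, against 2.74% of genes, which is no independent background here either. The 7 moved together with the members, so they are not separate observations. Their median log2 fold change was 0.61, from 0.47 for mt-Nd1 to 0.85 for mt-Nd3. The 6 members stood at 2.95, 2.60 and 2.60 times the complex I subunits in the WT control libraries by geometric means, and at 2.70 and 2.52 times in the libraries labelled skmNrip1-/-. The groups overlapped, and the difference in the log2 ratio was -0.06, or 0.03 when FPKM were summed. mt-Nd6, on the minus strand, stood at 0.61 on the log2 scale (adjusted p = 0.293 from limma).

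**Figure D4:**
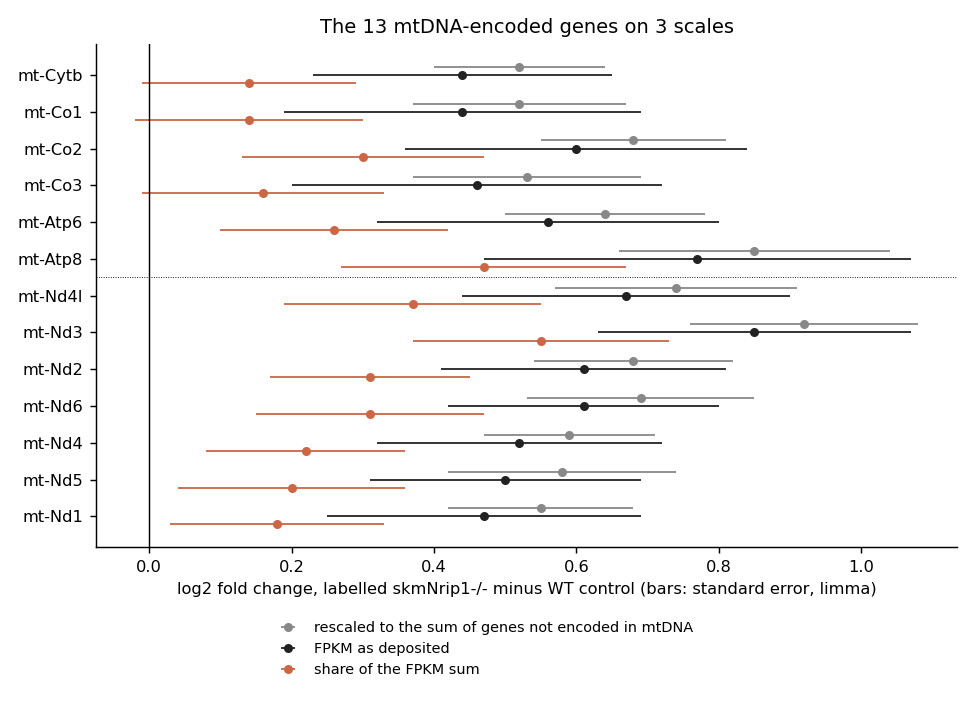
The log2 fold change (labelled skmNrip1-/- minus WT control) of the 13 mtDNA-encoded genes is plotted with its standard error from limma on 3 scales, with the 6 members above the dotted line. All points lie above 0, from 0.44 to 0.85 for deposited FPKM and from 0.14 to 0.55 for shares of the FPKM sum.

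Nuclear-encoded subunits of the same complexes were mostly higher in the libraries labelled skmNrip1-/- as well, with smaller differences, and 0 were called. In complex III, 9 of 9 were above 0, with a median log2 fold change of 0.22, and 4 had an unadjusted p of 0.05 or less, against 1 of 16 in complex IV, 3 of 18 in complex V and 6.57% of all tested genes. The range ran from 0.07 for Uqcrh, a small hinge subunit, to 0.44 (SE 0.12, adjusted p = 0.249 from limma) for Uqcrc2, a core subunit. Uqcrc2 had 278, 326 and 275 FPKM in the WT control libraries, and 404 and 389 in the libraries labelled skmNrip1-/-. mt-Cytb was thus level with the highest nuclear subunit of its complex.

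In complex IV, 14 of 16 tested nuclear subunits were above 0, with a median of 0.19. The range ran from -0.17 for Cox6a1, the less abundant isoform of subunit 6a here, to 0.48 for Cox5a (SE 0.14, adjusted p = 0.264 from limma). Cox5a had 838, 726 and 671 FPKM in the WT control libraries, and 1065 and 1002 in the libraries labelled skmNrip1-/-. It was the single nuclear subunit of complex IV above mt-Co1 and mt-Co3, and it lay below the 0.60 of mt-Co2 as deposited but above the 0.46 of mt-Co2 with its copy added. In complex V, 18 of 18 listed genes were above 0 before rounding, with a median of 0.14. They include Atpif1 (0.05), which encodes an inhibitor of ATP synthase rather than a subunit. The range ran from 0.00 for Atp5md to 0.52 (SE 0.12, adjusted p = 0.181 from limma) for Atp5a1, which encodes the alpha subunit of the catalytic head. mt-Atp6 and mt-Atp8 were both above all of them.

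On the share scale, which lowers nearly all genes alike, these lists had medians of -0.08, -0.11 and -0.16, beside -0.29 over all tested genes. Relative to that median they stood at 0.22, 0.18 and 0.13, and the 6 members at 0.50. The common shift leaves these distances nearly as they were in deposited FPKM. The ratio of mtDNA-encoded to nuclear-encoded subunits, by geometric means of FPKM in which scaling cancels, was computed for each complex. For complex III it was 69.2, 66.9 and 61.5 in the WT control libraries, and 74.5 and 77.7 in the libraries labelled skmNrip1-/-. For complex IV it was 134, 131 and 108 against 151 and 161, and for complex V 144, 169 and 124 against 191 and 218. In all 3 complexes the libraries labelled skmNrip1-/- had the higher ratio, without overlap. Among single genes, 15.8% of those tested had groups apart in this direction, and no such share was computed for ratios. The mtDNA-encoded genes moved together, so the 3 ratios are not separate observations. That of complex IV used mt-Co2 as deposited, without its nuclear copy. The differences in the log2 ratio were 0.21, 0.33 and 0.50, against an SD between WT control libraries of 0.09, 0.17 and 0.23. No test was made of these ratios, since they are scores over chosen genes.

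**Figure D5:**
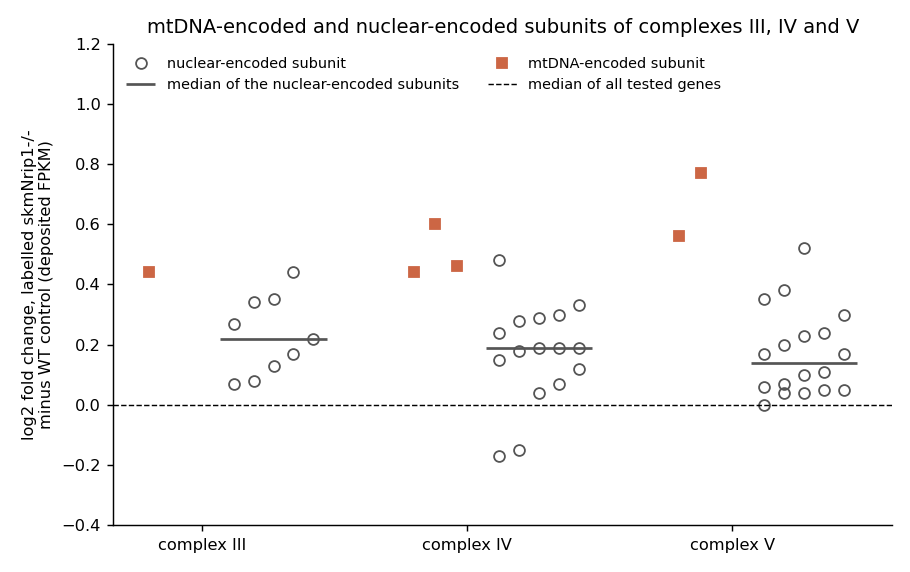
The log2 fold change in deposited FPKM (labelled skmNrip1-/- minus WT control) is plotted for mtDNA-encoded (squares) and nuclear-encoded subunits (circles, with their median as a line) of complexes III, IV and V. The medians of the nuclear subunits, with the inhibitor Atpif1 counted in complex V, are 0.22, 0.19 and 0.14. The squares run from 0.44 to 0.77, and the dashed line is the median of all tested genes.

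Factors that act on mtDNA and its RNA are encoded in the nucleus, and 0 of those on the lists were called. Among genes of mtDNA maintenance and transcription, 14 of 17 were above 0, with a median log2 fold change of 0.20. Tfam, which packages mtDNA and starts its transcription, had 24.6, 23.0 and 23.5 FPKM in the WT control libraries, and 30.5 and 29.2 in the libraries labelled skmNrip1-/-. These values did not overlap, and the log2 fold change was 0.33 (SE 0.10, adjusted p = 0.276 from limma). Polrmt, the mitochondrial RNA polymerase, overlapped between groups with 0.06. The extremes of the list were 0.53 for Mterf2, of the family of mitochondrial termination factors, and -0.35 for Rnaseh1, an RNase that removes RNA from RNA-DNA hybrids. Tfam and Polrmt were named after their values were seen.

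Among genes of mitochondrial messenger RNA processing and stability, 15 of 20 were above 0, with a median of 0.19. The extremes were 0.56 for Pnpt1, the polynucleotide phosphorylase of mitochondria, and -0.27 for Fastkd3. Lrpprc, which binds and stabilises mitochondrial messenger RNA and was named after its values were seen, had 26.3, 38.4 and 29.1 FPKM against 41.2 and 40.9. Its log2 fold change was 0.41 (SE 0.17, adjusted p = 0.417 from limma), although its partner Slirp, also named after its values were seen, had -0.07.

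Assembly factors were divided. For complex IV, 11 of 20 were above 0, with a median of 0.07, from -0.35 for Pet100 to 0.67 for Sco2, which delivers copper to the site held by the mt-Co2 protein. Sco2 had 2.78, 3.75 and 4.28 FPKM against 5.99 and 5.43. For complex III, 4 of 6 were above 0, from -0.22 for Uqcc2 to 0.48 for Uqcc1, which act together on newly made cytochrome b. For complex V, 3 of 5 were above 0, from -0.33 for Atpaf1 to 0.45 for Foxred1, which is better known for the assembly of complex I.

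Of the PGC-1 coactivators and the factors they act with, 8 of 10 were above 0, with a median of 0.28 and 0 called. The extremes were 0.63 for Esrrb and -0.08 for Nrf1. Ppargc1a itself had 5.50, 9.86 and 7.70 FPKM in the WT control libraries, and 7.55 and 7.05 in the libraries labelled skmNrip1-/-, which lay within the range of the former. Ppargc1a was named after its values were seen.

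The nuclear genes whose profile over the 5 libraries was most like the mean of the 6 members were sought among the 4545 whose mean FPKM was 10 or more. Likeness was the root mean square difference between centred log2 values. The nearest was Cox5a, at 0.0531, and it was followed by Mrps9 (0.0603), a protein of the mitochondrial ribosome, Zfand6 (0.0611), Lactb2 (0.0676), an RNase of mitochondria, and Pdss2 (0.0742), which acts in ubiquinone synthesis. The median over the genes compared was 0.321. The members themselves ranged from 0.0329 for mt-Atp6 to 0.176 for mt-Atp8, each set against a mean that includes it. In all 5 of these nuclear genes, as in the mean of the members, WT control library 3 was the lowest library and library 1 the highest of the WT control libraries. The 5 genes were chosen by likeness over these same libraries, so the shared order follows from the choice.

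Markers of muscle and of other cells moved with the groups in part, with 0 called. The 10 markers of skeletal muscle fibres, of which Acta1 and Ckm are expressed in fibres of every type and the others mark fast fibres, were abundant. Their summed FPKM was 99469 to 141548 in the WT control libraries and 91694 to 96304 in the libraries labelled skmNrip1-/-, with 9 of 10 below 0. The 10 genes of oxidative and slow fibres summed to 4839 to 6608 and to 8222 to 8278 FPKM, with 5 of 10 above 0. Their extremes were 3.46 for Myl2 and -1.24 for Myl3. Mb, myoglobin, named after its values were seen, made up most of that sum, with 4522, 4329 and 5157 FPKM against 7764 and 7664. Blood markers summed to 529 to 775 and to 840 to 1012 FPKM, with 6 of 6 above 0, from 0.04 for Lyz2 to 0.55 for Hbb-bt. Fat, nerve, endothelium and fibroblast markers overlapped between groups in their sums. Of the heart markers, 4 of 7 were listed, at 7.22 to 12.5 FPKM in sum in the WT control libraries and at 7.01 to 9.79 in the others, with Tnni3 and Ryr2 at 0.932 FPKM or less. The part of these differences in the values of the 6 genes was not tested.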

How the data were processed

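TA libraries (3 WT control and 2 labelled skmNrip1-/-) were grouped by their public labels. The authors ran Salmon 1.10.2 on mm10 and used tximport to obtain gene-level values. FPKM per gene and library were deposited, and how these were computed, the annotation release and the handling of strand are not given in the sources used here. The 2 columns holding the authors' own log2 fold changes and adjusted p-values from DESeq2 1.44.0 were not used. Absolute depth is unknown, so no counting intervals are given.

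Log2(FPKM + 0.1) of the 12148 genes whose mean FPKM was 0.5 or more was compared with limma 3.58.1 in R 4.3.3 (lmFit, eBayes with an intensity trend), with no covariates and Benjamini-Hochberg adjustment. Calls required an adjusted p no higher than 0.05 and a change of 1.2-fold or more. Fold changes on this scale understate those of low genes. The step was tested on simulated data whose changes were all larger than those of the 6 members. That test does not show how often changes of their size are called. Per-gene shares and the ratio of mt-Atp8 to mt-Atp6 were compared by exact two-sided permutation tests (scipy 1.17.1). Of the gene IDs, 16996 were in GENCODE M21 (GRCm38), 16919 with the same name. That release gave positions and sequences, and blastn 2.17.0 found the copies (at least 150 aligned bases and 80% identity). RefSeq gave the same positions for all 6 members.

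The members, gene lists and tests were chosen with earlier results of these data known. Genes named are the 6 members, Nrip1, called genes and the extremes of each list, copies of members and the 5 genes with the most similar profile, besides those stated as named later. Alternatives were pseudocounts of 1 and 0.01, no minimum or a minimum of 1 FPKM, other scalings and denominators, no trend, robust estimation, the replicate block, other call thresholds, FPKM sums in ratios and leaving out each library. Libraries are taken as separate mice; where they were not, p-values measure technical spread.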

Additional observations from a re-analysis of the deposited data

How the results depend on the processing

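The log2 fold changes of the 6 members stayed above 0 in all 102 repeats (17 settings for each gene), from 0.14 to 0.87, and 0 were called (smallest adjusted p 0.116 from limma). Many of these repeats could not have changed the sign. Pseudocount, FPKM minimum, intensity trend, robust estimation and median-of-ratios scaling left the estimates of genes this abundant as they were. Leaving out single libraries gave 0.38 to 0.54 for mt-Cytb, 0.32 to 0.56 for mt-Co1, 0.50 to 0.74 for mt-Co2, 0.32 to 0.63 for mt-Co3, 0.44 to 0.69 for mt-Atp6 and 0.67 to 0.87 for mt-Atp8. With 1 library left in an arm, its spread was assumed equal to that of the other group.

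Of all genes, 45 were called higher and 10 lower. The counts were 22 and 3 without the intensity trend, 14 and 3 with the adjusted p threshold at 0.01, and 6 to 55 and 3 to 16 when single libraries were left out. Calls lower numbered 63 for shares of the FPKM sum, and 115 with the nuclear copies added on that scale. The cause was not tested. Same-numbered libraries come from different mice, and their deviations correlated at 0.0647 and 0.0952 over 12148 genes. The replicate block, which sets WT control library 3 aside, gave 18 and 4 calls, 0 of them members.

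The difference of 8.79 percentage points in the summed share was 41.1 points when divided by genes not encoded in mtDNA. It was 2.59 with mt-Atp8 left out of the members' total but kept in the FPKM sum. It was 7.70 to 9.82 when single libraries were left out. The difference in mt-Co2's share of the 6-gene sum was -1.22 to 0.21 points, and that in the log2 ratio to complex I was -0.11 to 0.00, when single libraries were left out, and the latter was 0.03 with FPKM sums. Without WT control library 1, the differences in the 6-gene sum were -0.50 points for mt-Co3 (in place of -1.26) and -0.06 for mt-Atp6 (in place of -0.43). The other ratios and shares kept their sign. Depth is unknown, which limits the errors to the spread between libraries.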
